A study of Homo sapiens with 4 samples.

Results

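The 34 genes described here encode cyclins, cyclin-dependent kinases, phosphatases, licensing and replication factors, mitotic regulators and the retinoblastoma family. Their products drive or restrain the cell division cycle and DNA replication. The genes were taken from a fixed list of gene symbols, and all 34 were found among the 19974 protein-coding genes of chromosomes 1 to 22 and X. Open chromatin had been mapped in HCT116, an established cell line from a human colorectal carcinoma, by ATAC-seq. In that assay a transposase inserts sequencing adapters into accessible DNA. The FOXD2 group (2 libraries) came from HCT116 transduced with a pSin lentivirus holding the full-length open reading frame of FOXD2. FOXD2 is a DNA-binding protein of the forkhead family. The control group (2 libraries) came from HCT116 transduced with the empty pSin vector. Both groups had been grown under the same puromycin selection as stable lines, so the comparison is of vector-driven FOXD2 against vector alone in 1 cell line. Whether replicates are separate cultures is not stated, so their spread may be technical. Overlapping intervals of the 4 deposited peak lists were merged into 122856 regions, and 167 of them lay inside 1 of the 34 genes or had it as the nearest protein-coding gene within 100 kb. Coordinates are hg38 throughout.

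Cyclins activate cyclin-dependent kinases in turn: D-type cyclins act with CDK4 and CDK6 early in G1, cyclin E with CDK2 at the entry to S phase, and cyclins A and B with CDK1 up to mitosis. The early kinases inactivate the retinoblastoma family, which frees E2F factors to switch on licensing and replication genes, while many mitotic genes are switched on later through a CHR element that sits beside CCAAT boxes in their promoters. In dividing carcinoma cells such as HCT116 the promoters of the cycle genes are generally in use.

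Promoter sequences are shown for 8 genes that carry the results below. CCNB1 had the strongest gene-end site in 3 of 4 libraries, and CDC20, AURKB and CDC25B had sites that ranked apart between the groups. PLK1, TOP2A, CDC25C and MCM6 are further mitotic and replication genes. Each sequence is the 250 bases before a listed start in RefSeq (GRCh38.p14), written 5′ to 3′ on the gene's own strand. Capitals mark matches on either strand to 4 motifs: CHR (TTTGAA or TTCGAA), the CCAAT box (CCAAT), E2F (TTNNCGC with C or G at each N) and forkhead (TGTTTAC). The windows are chr5:69166900-69167149 (plus strand) for CCNB1, chr16:23678639-23678888 (plus) for PLK1, chr1:43358731-43358980 (plus) for CDC20 and chr17:40417897-40418146 (minus) for TOP2A. For CDC25C, chr5:138331805-138332054 (minus) lies before a start inside the gene. The others are chr17:8210226-8210475 (minus) for AURKB, chr2:135876444-135876693 (minus) for MCM6 and chr20:3786701-3786950 (plus) for CDC25B.
CCNB1: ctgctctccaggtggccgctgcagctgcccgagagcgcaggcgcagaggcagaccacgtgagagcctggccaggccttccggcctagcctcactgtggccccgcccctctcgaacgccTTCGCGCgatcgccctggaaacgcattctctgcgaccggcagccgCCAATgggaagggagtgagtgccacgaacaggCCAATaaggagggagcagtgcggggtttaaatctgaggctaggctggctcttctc
PLK1: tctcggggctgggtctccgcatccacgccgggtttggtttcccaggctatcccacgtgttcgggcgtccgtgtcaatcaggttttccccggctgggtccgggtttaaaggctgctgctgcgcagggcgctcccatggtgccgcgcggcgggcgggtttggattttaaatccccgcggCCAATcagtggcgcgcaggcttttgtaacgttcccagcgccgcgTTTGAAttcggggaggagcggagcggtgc
CDC20: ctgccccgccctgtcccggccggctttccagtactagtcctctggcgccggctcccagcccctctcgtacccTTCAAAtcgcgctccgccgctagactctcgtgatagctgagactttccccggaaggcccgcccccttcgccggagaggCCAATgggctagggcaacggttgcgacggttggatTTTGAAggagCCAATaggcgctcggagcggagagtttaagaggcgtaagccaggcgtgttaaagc
TOP2A: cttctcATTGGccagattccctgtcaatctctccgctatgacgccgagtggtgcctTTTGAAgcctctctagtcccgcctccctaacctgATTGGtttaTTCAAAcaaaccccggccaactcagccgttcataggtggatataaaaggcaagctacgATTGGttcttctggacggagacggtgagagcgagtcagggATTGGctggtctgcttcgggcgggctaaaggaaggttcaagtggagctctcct
CDC25C: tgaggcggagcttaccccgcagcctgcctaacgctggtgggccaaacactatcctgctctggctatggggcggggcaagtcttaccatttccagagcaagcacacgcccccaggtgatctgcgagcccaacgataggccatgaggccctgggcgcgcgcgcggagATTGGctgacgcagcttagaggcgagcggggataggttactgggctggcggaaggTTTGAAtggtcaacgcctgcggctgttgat
AURKB: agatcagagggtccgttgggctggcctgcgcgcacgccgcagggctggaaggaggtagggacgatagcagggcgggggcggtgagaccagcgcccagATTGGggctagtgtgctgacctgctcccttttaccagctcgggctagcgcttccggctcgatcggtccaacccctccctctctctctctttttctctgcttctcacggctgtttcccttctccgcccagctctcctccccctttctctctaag
MCM6: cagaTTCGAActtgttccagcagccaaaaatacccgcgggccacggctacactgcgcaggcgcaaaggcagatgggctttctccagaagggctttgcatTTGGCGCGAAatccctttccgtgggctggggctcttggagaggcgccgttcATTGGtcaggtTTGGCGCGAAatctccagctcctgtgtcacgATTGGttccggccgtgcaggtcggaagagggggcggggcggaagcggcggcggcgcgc
CDC25B: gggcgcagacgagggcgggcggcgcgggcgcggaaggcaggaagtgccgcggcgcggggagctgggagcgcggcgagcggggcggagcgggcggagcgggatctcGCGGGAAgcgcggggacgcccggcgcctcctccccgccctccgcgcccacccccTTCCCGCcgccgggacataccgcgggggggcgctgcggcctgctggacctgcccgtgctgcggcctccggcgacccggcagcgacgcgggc

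The PLK1 window held a CHR match 29 bases before the start and a CCAAT match 73 bases before it. CDC20 had CHR matches at -178 and -65 and CCAAT matches at -100 and -55, counted from the first base of the match to the start. TOP2A held 2 CHR and 4 CCAAT matches. MCM6 held 4 E2F matches, at -151, -148, -89 and -86, which form 2 overlapping pairs because the motif was read on both strands. AURKB held a single CCAAT match at -153, and the printed CDC25B window held 2 E2F matches at -145 and -91 with no CHR or CCAAT match. At the inner CDC25B starts, that at 3796310 had a CHR match at -38 and a CCAAT match at -73. The start at 3795789 had a CCAAT match at -169, and that at 3800048 had no match. Over the full windows of 300 bases (250 before and 50 after the start), 27 of the 34 genes had a promoter in the RefSeq table, and the first listed one of each was counted. CHR matches were found in 9 of 27 (33.3%), against 13.5% of 15812 protein-coding promoters. E2F matches were found in 13 of 27 (48.1%), against 17.1%, and CCAAT matches in 17 of 27 (63.0%), against 36.3%. The forkhead core was found in 2 of 27 (7.41%, CDK1 and CCND3), against 2.62%. The windows of the cell cycle genes had a median GC content of 64.7%, against 62.7% over all promoters. A match is a description of letters and not a bound site. CCND2, CCNE2, CDK2, WEE1, MCM4, MCM5 and AURKA had no entry in the table.

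The 4 lists were of unequal length, with 82739 and 64675 intervals in FOXD2 replicates 1 and 2, against 77752 and 72796 in control replicates 1 and 2. Read depth is unknown, since the lists hold no read counts. The authors' median fold enrichment was 5.30 and 5.52 in the FOXD2 libraries and 5.67 and 5.78 in the controls. Called intervals covered 1158 and 1135 of the 2648 bases of the FOXD2 gene itself in the FOXD2 libraries, against 514 and 199 in the controls. Reads from the vector's own FOXD2 sequence may map there. All 8 epithelial markers had an interval at a gene end in all 4 libraries, while PTPRC, a defining leukocyte gene, PECAM1 of endothelium and LUM and DCN of fibroblasts had none in any library. Of the leukocyte list, 1 and 1 of 6 genes had such an interval in the FOXD2 libraries and 2 and 2 in the controls. Of the endothelial list it was 3 and 2 of 5 against 1 and 1, and of the fibroblast list 3 and 2 of 5 against 3 and 3. What part this plays in the results was not tested.

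Most gene ends of the cell cycle genes were open in both groups. An interval within 1000 bp of a gene end was called in all 4 libraries for 32 of the 34 genes (94.1%), against 65.5% of all protein-coding genes. The remaining 2 genes had none in any library, so within 1000 bp no gene differed between FOXD2 and control cells in whether its end was open. Those 2 were CCND2, a D-type cyclin, and ORC1, the largest subunit of the origin recognition complex. For CCND2 a region lay just beyond that window, 1103 bp outside the gene (chromosome 12, 4271797 to 4272659). It had a −log10 q of 6.73 and 9.15 in the FOXD2 libraries and 7.37 in control replicate 1, and was absent from control replicate 2. For ORC1 the gene table's end lies upstream of the listed start, and a region in all 4 libraries (chromosome 1, 52403709 to 52405066) lay at that start, which is also at the end of PRPF38A. The gene table gives no strand, so a gene end may be either end of the gene. For CCND3 the end counted is the far one, by the strand of its listed starts.

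Listed start sites narrowed this. The 27 genes with an entry had 42 listed starts, of which 39 had an interval within 1000 bp in all 4 libraries, against 63.6% of the listed starts of all protein-coding genes. The other 3 had none in any library. They were the CCND3 start at 41939205 on chromosome 6, the CDC25B start at 3800048 on chromosome 20 and the RB1 start at 48476450 on chromosome 13, each inside its gene. The called summit usually lay a little upstream of the start. Over the 26 genes with an interval at their first listed start, the median summit lay upstream in 22, and all 4 summits were within 300 bp of the start in 24. For 11 of the genes, the open end was also the end of a neighbouring protein-coding gene, such as TPRA1 beside MCM2, AP4M1 beside MCM7, BBS7 beside CCNA2 and DCTN5 beside PLK1. A peak there cannot be given to 1 of the 2 genes.

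Strength was described by rank. The −log10 q and fold of a peak are the authors' own values for it, and they served only to rank or describe peaks inside the list they came from. The 39933 regions present in all 4 libraries were ranked by −log10 q in each library, so that the percentile (100 is the strongest) rests on a set of 1 size everywhere. The libraries came from whole cell populations, so fewer cells with an open site and less opening per cell cannot be told apart. With 2 libraries against 2, no exact two-sided test can give a p below 0.333, and the values below are descriptions without a test.

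Gene-end regions of the cell cycle genes were among the stronger ones in every library. The 34 shared regions had a median percentile of 87.1 and 85.1 in the FOXD2 libraries and 86.5 and 87.1 in the controls, against 77.6, 77.0, 77.7 and 77.1 over all 12627 shared gene-end regions in the same order of libraries. Both FOXD2 percentiles lay below both control percentiles in 2 of the 34 (5.88%), against 19% of all shared gene-end regions. Both lay above in 5 of 34 (14.7%), against 16.4%, and the groups overlapped in the other 27. The median of FOXD2 minus control was -0.61 percentile points for these regions and -0.36 for all shared gene-end regions.

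**Figure D1:**
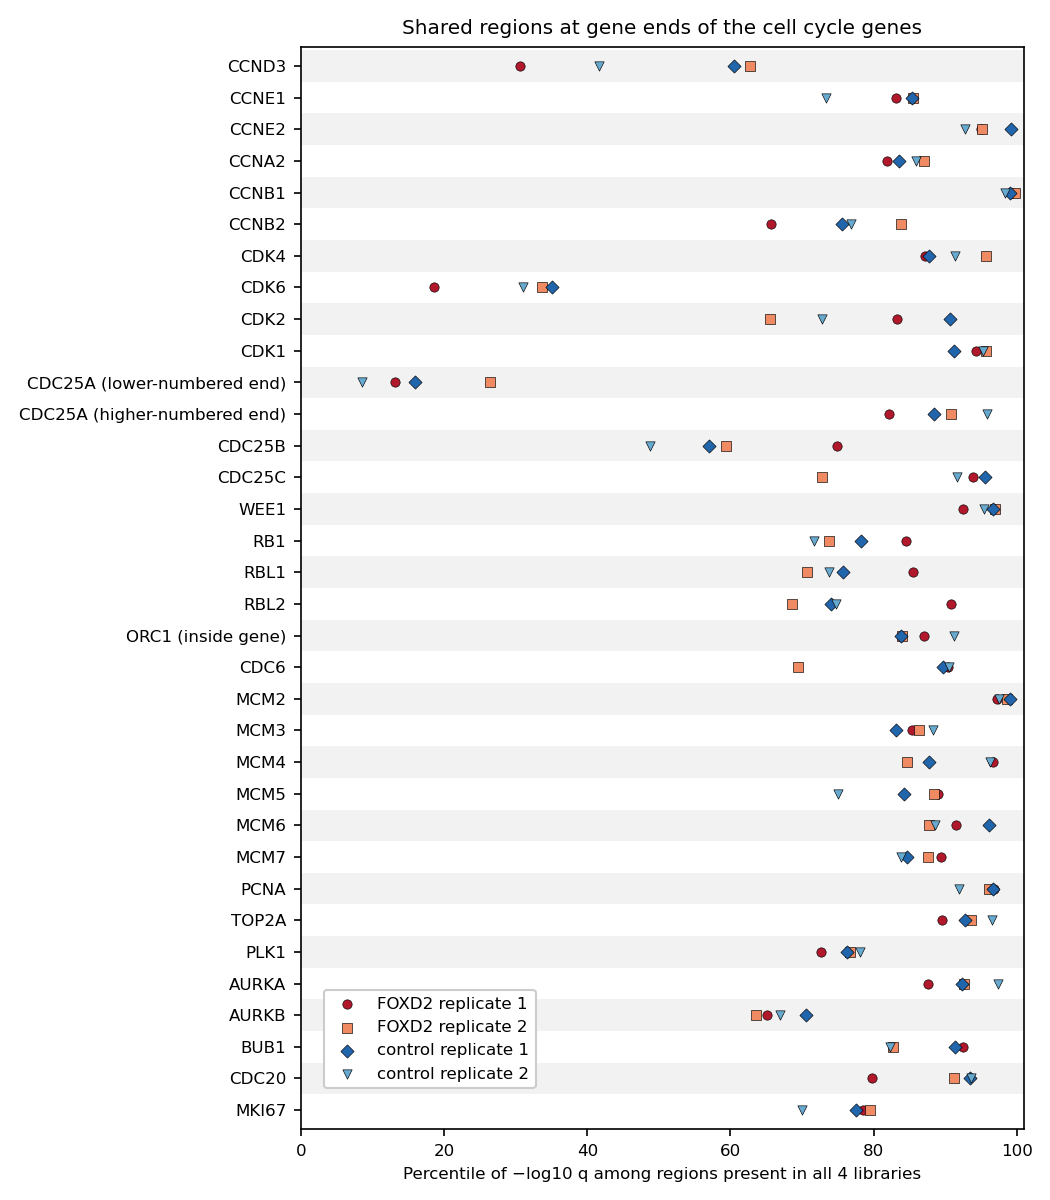
Percentile of −log10 q (horizontal axis, 0 to 100) of each shared gene-end region of the cell cycle genes among the 39933 regions present in all 4 libraries, with 1 point per library and genes ordered by role. Most points lie to the right of 60 in every library, CDK6 and the lower-numbered end of CDC25A lie far to the left, and the FOXD2 and control points overlap in 27 of the 34 rows.

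Among the cyclins, CCNB1, which activates CDK1 for mitosis, stood at percentiles 99.3 and 99.7 in the FOXD2 libraries and 99.1 and 98.4 in the controls. Its FOXD2 values lay above both controls by a small margin. CCNE2, an S-phase entry cyclin, stood at 95.0 and 95.1 against 99.1 and 92.8. CCNE1, its paralogue, stood at 83.1 and 85.4 in FOXD2 cells and 85.3 and 73.3 in control cells. CCNA2, the cyclin of S phase and G2, stood at 81.8 and 87.1 against 83.5 and 85.9. In these 3 genes the groups overlapped. CCNB2, the second B-type cyclin, had 65.6 and 83.8 in the FOXD2 libraries and 75.6 and 76.9 in the controls. CCND3 was open at its lower-numbered end (chromosome 6, 41935867 to 41936649), at 30.6 and 62.7 against 60.4 and 41.6. Its listed starts are on the minus strand, so this is the far end of the gene and not a start. For both genes the 2 FOXD2 libraries spanned the control values.

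Of the kinases, CDK1, the mitotic kinase, ranked at 94.3 and 95.8 in FOXD2 cells and 91.2 and 95.2 in control cells. CDK4 ranked at 87.2 and 95.7 against 87.8 and 91.3. CDK2 ranked at 83.3 and 65.5 against 90.7 and 72.7, and the groups overlapped for all 3. The start of CDK6 was far weaker than these, at 18.6 and 33.7 in FOXD2 libraries and 35.1 and 31.0 in controls. Its interval covered 549 and 393 bases, against 630 and 543. WEE1, the kinase that holds CDK1 inactive, ranked at 92.5 and 96.9 against 96.7 and 95.4, again with overlap.

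The CDC25 phosphatases remove the inhibitory phosphates from the kinases. Of the 34 gene-end regions, that of CDC25B had the widest difference of mean percentile upward and that of CDC25C downward. Over all shared gene-end regions the lower and upper deciles of this difference were -11.1 and 9.56. Its 1st and 99th percentiles were -25.2 and 23.8. Of the 34 regions only that of CDC25B lay outside the deciles, and all lay within the wider range. CDC25B ranked at 74.9 and 59.4 in the FOXD2 libraries and 57.0 and 48.8 in the controls (chromosome 20, 3785463 to 3787050, shared with the end of CENPB). Both FOXD2 values lay above both controls, with a difference of means of 14.3 points. This was the widest upward difference among the 34 regions, and it was 6.50 without FOXD2 replicate 1 and 22.0 without FOXD2 replicate 2. Ranked by fold enrichment, CDC25B stood at 59.3 and 42.5 in FOXD2 cells and 33.5 and 26.0 in control cells, also without overlap. CDC25C ranked at 93.8 and 72.7 against 95.6 and 91.6 (chromosome 5, 138337395 to 138338724, shared with the end of FAM53C). The difference of means of -10.3 came from FOXD2 replicate 2, since FOXD2 replicate 1 lay between the controls. Leaving out FOXD2 replicate 2, the difference was 0.21. CDC25A had an open region at each end. That at its listed start ranked at 82.1 and 90.9 in FOXD2 cells and 88.4 and 95.8 in control cells, and that at the far end (chromosome 3, 48158026 to 48158376) at 13.1 and 26.4 against 15.9 and 8.52. The difference of means at the far end was 7.50, and 0.88 without FOXD2 replicate 2. Both ends overlapped between groups.

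All 3 retinoblastoma family genes, whose products restrain E2F factors, were open at a gene end with overlapping groups. RB1 ranked at 84.5 and 73.8 in FOXD2 libraries and 78.3 and 71.7 in controls. RBL1 (p107) ranked at 85.5 and 70.6 against 75.7 and 73.8, and RBL2 (p130) at 90.8 and 68.6 against 74.0 and 74.8. In each of the 3 genes FOXD2 replicate 1 ranked above both controls. FOXD2 replicate 2 ranked below both controls for RBL1 and RBL2, and between them for RB1.

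The MCM2 to MCM7 proteins form the ring-shaped helicase that is loaded on DNA as origins are licensed. MCM5 ranked at 89.0 and 88.4 in FOXD2 libraries and 84.2 and 75.0 in controls (chromosome 22, 35399221 to 35400706), and MCM7 at 89.4 and 87.6 against 84.6 and 83.8 (chromosome 7, 100100475 to 100102172, shared with the end of AP4M1). These 2 lay above both controls. The MCM5 difference of 9.09 was 4.49 without control replicate 2 and 13.7 without control replicate 1. MCM2 ranked at 97.2 and 98.7 against 99.1 and 97.5, and MCM3 at 85.4 and 86.3 against 83.1 and 88.3. MCM4 ranked at 96.6 and 84.7 against 87.7 and 96.2, and MCM6, with its paired E2F matches, at 91.6 and 87.7 against 96.1 and 88.6. The groups overlapped for these 4 subunits. CDC6, which loads the helicase with the origin recognition complex, ranked at 90.4 and 69.4 in FOXD2 cells and 89.7 and 90.5 in control cells (chromosome 17, 40287472 to 40288403). Its difference of means of -10.2 was 0.27 without FOXD2 replicate 2. The shared region at the listed start of ORC1 ranked at 87.0 and 84.0 against 83.8 and 91.2. PCNA, the sliding clamp of the DNA polymerases, ranked at 96.9 and 96.1 against 96.7 and 92.0, and TOP2A, which untangles replicated DNA, at 89.5 and 93.6 against 92.7 and 96.5. None of these 4 separated the groups.

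The 2 gene ends of the 34 whose FOXD2 percentiles both lay below both controls belonged to mitotic genes. CDC20, the activator of the anaphase-promoting complex, ranked at 79.7 and 91.2 in FOXD2 cells and 93.5 and 93.6 in control cells (chromosome 1, 43358130 to 43359504). Its difference of means of -8.06 was -2.31 without FOXD2 replicate 1 and -13.8 without FOXD2 replicate 2. Ranked by fold enrichment it stood at 53.5 and 71.6 against 70.9 and 77.8, where the groups overlapped. AURKB, the kinase of the chromosomal passenger complex, ranked at 65.1 and 63.6 against 70.5 and 66.9 (chromosome 17, 8210103 to 8210792). When the fold enrichment was ranked in place of −log10 q, neither gene met the rule: 0 of the 34 regions lay below both controls and 9 lay above. Shares over all shared gene-end regions are given here only for −log10 q, so these 2 counts cannot be set against them. MKI67, the gene of the proliferation antigen Ki-67, ranked at 78.5 and 79.5 in FOXD2 cells and 77.6 and 70.0 in control cells, above both controls. PLK1, a kinase that acts on CDC25C and the spindle, ranked at 72.6 and 76.7 against 76.3 and 78.0. AURKA, the centrosomal kinase, ranked at 87.6 and 92.6 against 92.3 and 97.4, and BUB1, a spindle checkpoint kinase, at 92.4 and 82.7 against 91.3 and 82.2. In these 3 the groups overlapped.

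Away from gene ends the 34 genes differed greatly in how many open regions they had. A single region was assigned to 12 of the 34 genes (35.3%), against 14.9% of all protein-coding genes. These were CCNE2, CCNA2, CCNB1, CDK4, CDK2, ORC1, CDC6, MCM4, MCM7, PLK1, AURKA and CDC20. In each the region lay at a gene end, that of PRPF38A for ORC1, and was present in all 4 libraries. None of these 12 genes thus had a region away from gene ends. At the other end, CDK6 had 26 regions, CCNE1 and MCM5 15 each, CCND3 14 and MKI67 13, which together were 83 of the 167. CDK6 also has the longest gene body of the 34, at 231653 bp. The median was 3 regions per gene, against 4 over all protein-coding genes.

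**Figure D2:**
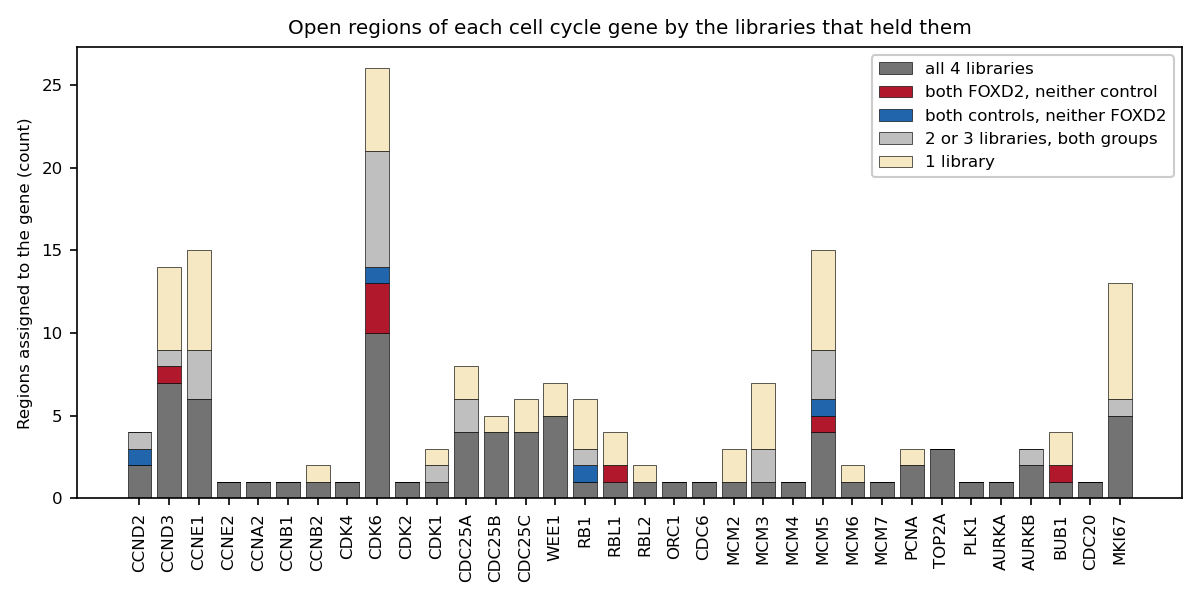
Number of open regions assigned to each of the 34 genes (vertical axis, count), stacked by which libraries held them: all 4, both FOXD2 only, both controls only, 2 or 3 libraries of both groups, or 1 library. CDK6 has 26 regions, including 3 of the 7 held by FOXD2 libraries only, while 12 genes have 1 region that all 4 libraries held.

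Of the 167 regions, 119 and 113 were present in the FOXD2 libraries and 115 and 102 in the controls. All 4 libraries held 79 (47.3%), where over the whole series they held 39933 of 122856 regions. A single library held 54. No overall share is given here for presence in a single library or in each library, also where single genes are described below, and the lists differ in length. Regions in both FOXD2 libraries and neither control, called gained here, numbered 7 (4.19%), against 3.87% of all regions assigned to a gene. Regions in both controls and neither FOXD2 library, called lost, numbered 4 (2.40%), against 3.78%. Both shares lay near those over all genes, and with a −log10 q of at least 5 required of each interval, 3 gained and 1 lost region were left. Regions at gene ends were steadier than the rest, with 81.0% of 42 present in all 4 libraries, against 36% of the 125 away from gene ends. The same shares over all assigned regions were 68.8% and 27.1%.

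CDK6, which encodes a D-cyclin kinase of G1, held 3 of the 7 gained regions and 1 of the 4 lost. The strongest gained one lay 38882 bp outside the gene, upstream of its start (chromosome 7, 92875455 to 92876241), with a −log10 q of 16.6 in FOXD2 replicate 1 and 12.6 in FOXD2 replicate 2. A second lay within the gene (92717959 to 92718698), with 8.98 and 6.10. The last lay within 1000 bp of the start (92835203 to 92835756), with 5.40 and 3.55, and was the only gained region at a gene end. The lost region lay within the gene (92642116 to 92642473), at 5.47 in control replicate 1 and 4.96 in control replicate 2. In all, 19 and 20 of the 26 CDK6 regions were present in the FOXD2 libraries, against 17 and 15 in the controls.

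**Figure D3:**
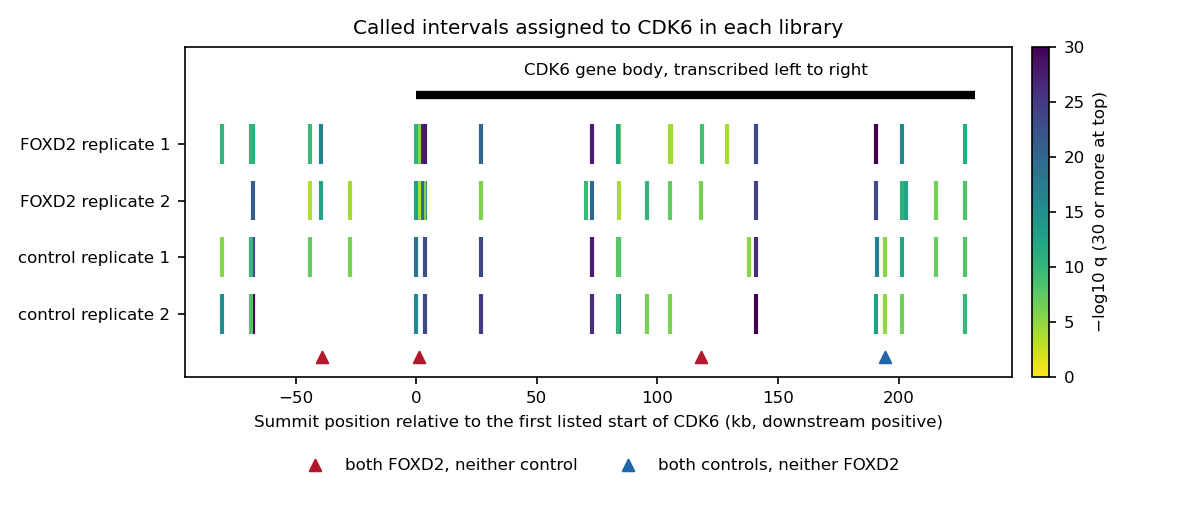
Called intervals assigned to CDK6 in each library, placed by summit in kb from the gene's first listed start (negative is upstream) and coloured by −log10 q, with triangles under regions held by both libraries of 1 group and neither of the other. FOXD2 libraries hold 3 regions that controls lack, 1 of them 38882 bp upstream of the gene, and controls hold 1 inside the gene that FOXD2 libraries lack.

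The other gained regions lay inside 4 genes. In BUB1 the region at 110659115 to 110659548 on chromosome 2 had a −log10 q of 11.0 and 3.65 in the FOXD2 libraries. In RBL1 the region at 37071576 to 37071881 on chromosome 20 had 7.54 and 4.81. In MCM5 the region at 35436996 to 35437300 on chromosome 22 had 7.49 and 8.47, and in CCND3, which encodes a D-type cyclin, the region at 42029928 to 42030297 on chromosome 6 had 4.11 and 7.73. MCM5 was also 1 of the genes with a lost region, at 35425941 to 35426278, with 9.75 and 8.21 in the controls. The RB1 region at 48317129 to 48317794 on chromosome 13 had 10.0 and 4.88 in the controls, and that 2264 bp outside CCND2 (chromosome 12, 4271148 to 4271498) had 3.37 and 5.41. Near the lost RB1 region, control replicate 2 alone held intervals at 48317875 to 48318134, at 48318314 to 48318680 and at 48334580 to 48334787. Some other gained or lost regions lay beside a region that both groups held. For the lost CCND2 region it was 4271797 to 4272659, in both FOXD2 libraries and control replicate 1. For the lost MCM5 region it was 35426390 to 35426761, in FOXD2 replicate 1 and control replicate 2. For the gained CCND3 region it was 42030457 to 42031008, in all 4 libraries. RB1 had 2 and 1 regions in the FOXD2 libraries and 3 and 6 in the controls, whereas RBL1 had 4 and 2 against 1 and 1. The lists of the FOXD2 libraries were the longest and the shortest of the 4. With all lists shortened to the length of the shortest, gained minus lost regions went to 0 for CCND3 and CCND2 and to 1 for CDK6 (2 with full lists), and did not change for BUB1, RBL1, RB1 and MCM5. With a −log10 q of at least 5 required, this balance went to 0 for BUB1, RBL1, RB1, CCND2 and CCND3. It stayed at 2 for CDK6 and at 0 for MCM5.

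The 45 shared regions away from gene ends included more that ranked higher in FOXD2 cells than lower. Both FOXD2 percentiles lay below both controls in 4 of 45 (8.89%), against 19.9% of all 24866 such regions, and above both in 12 of 45 (26.7%), against 20%. The median percentile was 54.0 and 56.2 in the FOXD2 libraries and 46.2 and 52.2 in the controls, while over all such regions it was 40.5 and 40.7 against 39.9 and 40.5. CDK6 alone held 5 of the 12 and 2 of the 4. Without CDK6 the counts were 7 higher (19.4%) and 2 lower (5.56%) of 36.

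**Figure D4:**
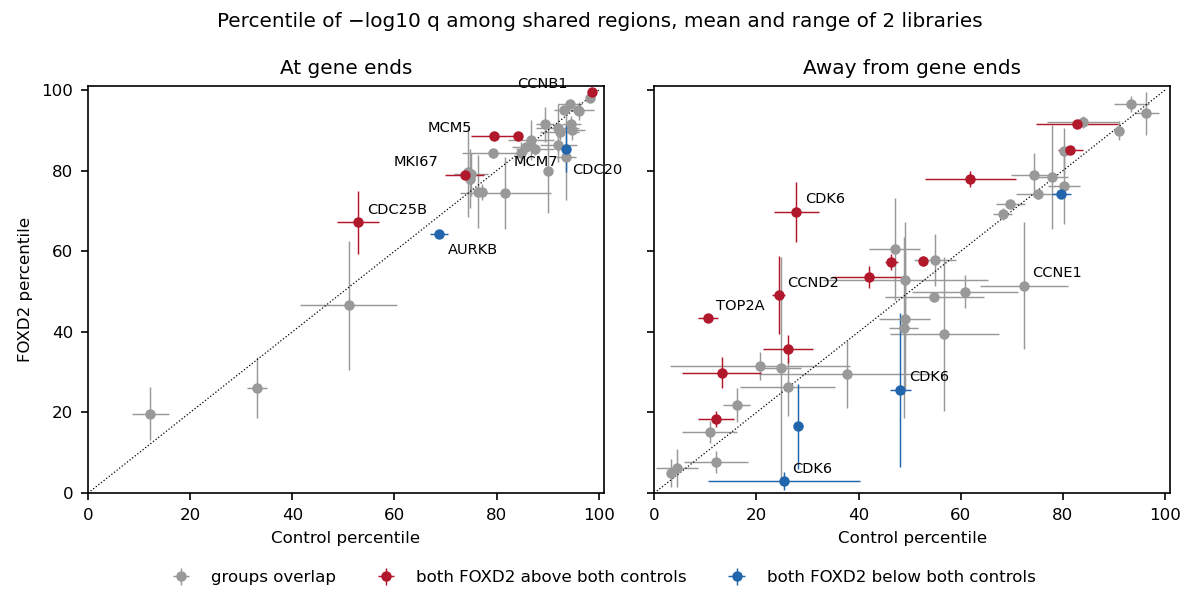
Mean percentile of −log10 q in the 2 FOXD2 libraries (vertical axis) against the 2 controls (horizontal axis) for shared regions of the cell cycle genes, at gene ends (left) and away from them (right), with lines from the lower to the higher library and the dotted line marking equal values. Gene-end regions crowd near the top of the diagonal, whereas regions inside CDK6, TOP2A and CCND2 lie well above it on the right.

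The widest differences upward were at 3 intragenic regions. Inside CDK6, the region at 92645461 to 92646065 ranked at 77.3 and 62.3 in FOXD2 libraries and 32.2 and 23.4 in controls, a difference of means of 42.0. Ranked by fold enrichment it stood at 82.6 and 62.8 against 49.4 and 35.2, again without overlap. Inside TOP2A, the region at 40399225 to 40399509 on chromosome 17 ranked at 44.1 and 42.7 against 8.52 and 12.6, a difference of 32.8. Ranked by fold it stood at 77.2 and 71.9 in FOXD2 cells and 27.3 and 33.0 in control cells, and both rankings separated the groups. Inside CCND2, which had no interval at a gene end, the region at 4276744 to 4277268 on chromosome 12 ranked at 39.6 and 58.7 against 23.0 and 25.7, a difference of 24.8 that was 15.2 without FOXD2 replicate 2. Over all shared regions away from gene ends, the 1st and 99th percentiles of this difference were -33.5 and 38.9, so the CDK6 value lay outside that range and the TOP2A and CCND2 values within it.

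The widest differences downward were likewise in CDK6 and near CCNE1. The CDK6 region at 92809382 to 92810505 ranked at 44.7 and 6.56 in FOXD2 cells and 46.2 and 50.2 in control cells, a difference of means of -22.5 that was -3.43 without FOXD2 replicate 2. The CDK6 region at 92752213 to 92752543 ranked at 5.24 and 0.831 against 10.5 and 40.3, a difference of -22.4 that was -7.48 without control replicate 2. The region 33701 bp outside CCNE1 (chromosome 19, 29858013 to 29858511) ranked at 67.1 and 35.8 against 81.0 and 63.8, a difference of -20.9 with overlapping groups. It was -5.29 without FOXD2 replicate 2, -36.6 without FOXD2 replicate 1 and -12.4 without control replicate 1. Both CDK6 regions lay below both controls.

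Of the 45 regions, 6 lay at listed starts, and their differences were smaller. The region over the outermost listed CCND3 start (chromosome 6, 42048418 to 42049025), whose window holds a forkhead match at -2, ranked at 56.3 and 50.8 in FOXD2 libraries and 49.4 and 34.7 in controls. Forkhead matches also lay at -208 for CDK1, whose gene-end groups overlapped, and at -220 and -5 for an inner MCM7 start. The MCM7 gene-end region ranked above both controls. Whether a match goes with a rank was not tested. The merged region that takes in the inner CDK6 start (92832943 to 92834225) ranked at 59.3 and 55.3 against 45.2 and 47.6. Its strongest interval peaked 868 bp downstream of the start in FOXD2 replicate 1, without covering the start. In FOXD2 replicate 2 it peaked 69 bp upstream, and in the controls 806 and 858 bp downstream, so the ranks are not of 1 summit. In this region and the CCND3 one, both FOXD2 values lay above both controls. The region over the 2 inner CDC25B starts with an interval (chromosome 20, 3795608 to 3796990) ranked the other way by its means, at 54.0 and 45.8 against 71.3 and 50.4, a difference of -10.9 with overlapping groups. The inner CDC25C start, with the CHR match printed above, lay in one of the strongest regions of the set (chromosome 5, 138331443 to 138332205), at 99.5 and 88.9 against 93.8 and 98.9 with overlapping groups. The CCND3 start at 41941808 lay in a region at 79.3 and 90.5 against 80.7 and 79.8, and the inner PCNA start in one at 94.4 and 98.5 against 90.0 and 96.8, also with overlap.

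The same counts were made over a second list of 72 cell cycle genes. It holds other licensing, nucleotide supply, checkpoint, spindle and condensin genes. A gene-end interval was present in all 4 libraries for 71 of the 72 (98.6%, against 65.5% of all genes), and SMC2, a condensin subunit, had none in any library. Of their 367 regions, 12 were gained (3.27%, against 3.87%) and 14 lost (3.81%, against 3.78%), none of them at the gene's own end. GINS3, a subunit of the replicative helicase complex, had 3 gained regions outside the gene, and NDC80, of the outer kinetochore, had 2. MAD1L1, which anchors the spindle checkpoint protein MAD2, had 5 lost regions inside the gene. NEK2, a centrosomal kinase, had 2 lost regions, 21384 and 24824 bp outside the gene. Of its 75 shared gene-end regions, 18 ranked lower in both FOXD2 libraries (24%, against 19% of all shared gene-end regions) and 12 higher (16%, against 16.4%). Of its 64 shared regions away from gene ends, 9 ranked lower (14.1%, against 19.9%) and 12 higher (18.8%, against 20%). Lower ranks thus outnumbered higher ones at gene ends here, whereas the 34 genes had 2 lower and 5 higher, and the difference between the lists was not tested.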

How the data were processed

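Per the labels' protocols, 4 ATAC-seq libraries of HCT116 were made from transduced, puromycin-selected cells. The submitters' processing notes name MACS2 2.2.7.1, bedtools, Picard, Bowtie2 2.3.4.1, cutadapt 3.4 and the hg38 build. What each tool did, its settings and any shift of read ends for Tn5 were not given in the sources used here. Peaks were deposited by the authors as 1 list per library, with none pooled. Each deposited interval carries the authors' fold enrichment (a ratio within the library), the authors' −log10 p and −log10 q, a score and a summit offset. The lowest deposited −log10 q was 2.00 to 2.03, so weaker sites could not be listed. Read depth is unknown.

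With Python 3.11.15, numpy 2.4.6 and pandas 2.3.3, intervals on chromosomes 1 to 22 and X were merged into regions wherever they shared 1 bp or more. Between 0.208% and 0.251% of each list lay on other contigs and was left out. Genes came from RefSeq (GRCh38.p14, the same build as hg38), without strand or exons, so a region is placed inside or outside a gene but not in an exon or intron. Starts, strands and promoter sequences came from RefSeq's promoter table. Percentiles used the regions present in all 4 libraries. The merging and assignment were tested on simulated data. No test across regions was run.

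The genes and lists were chosen with earlier results of these data known. The text gives gene-end values of all 34 genes, every gained or lost region, and the 3 shared regions with the widest change of mean percentile each way at and away from gene ends. The other starts and neighbouring regions it describes were chosen after their values were seen. Of the second list, genes with 2 or more gained or 2 or more lost regions are named. Alternatives covered the peak threshold, summit windows of 100 bp to each side, lists of equal length, gene-end windows of 500 and 2000 bp, listed starts, a distance of 20 kb, the nearest gene end, ranking by fold and leaving out each library.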

Additional observations from a re-analysis of the deposited data

How the results depend on the processing

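The count of 32 genes with an open end in all 4 libraries was 32 under every left-out library, a −log10 q of at least 5, equal list lengths and gene-end windows of 500 and 2000 bp. It was 31 with summit windows, and 26 of the 27 genes with a listed start had an open one. A window of 2000 bp also takes in the CCND2 region 1103 bp outside the gene, which control replicate 2 lacked. With a −log10 q of at least 5 the 7 gained and 4 lost regions numbered 3 and 1. Under summit windows, equal list lengths, a distance of 20 kb and assignment to the nearest gene end they ranged from 5 to 7 gained and from 3 to 5 lost. Leaving out 1 library at a time, by which the rule asks less of a group, gave 8 to 23 gained and 4 to 18 lost regions. There were 22 gained and 9 lost without FOXD2 replicate 1, 23 and 4 without FOXD2 replicate 2, 12 and 13 without control replicate 1, and 8 and 18 without control replicate 2. In the same way, of the gene-end regions 8 to 13 ranked lower and 8 to 13 higher. Of the regions away from gene ends, 9 to 12 ranked lower and 19 to 23 higher. The share of all regions that meets this looser rule is not given here. The gained, lost, lower and higher counts with 1 library left out therefore cannot be read as a lean either way. Ranking by fold gave 0 lower and 9 higher at gene ends, against 2 and 5 by −log10 q, and the cause was not tested. The share of all shared gene-end regions under fold ranking is not given here. The differences of CDC25C and CDC6 turned round without FOXD2 replicate 2, to 0.21 and 0.27 percentile points, and were -20.9 and -20.7 without FOXD2 replicate 1. Of the other recomputed differences of single regions, 3 moved past the spread between replicates, all when ranked by fold and with the sign kept. MCM5 went up to 17.4 and TOP2A to 44.4, and CDK6 down to 30.4. The other 55 did not, but leaving out 1 library cannot move a difference past a spread computed from the same replicates. Those values are therefore no sign of stability. The CDK6 region at 92809382, which went from -22.5 to -3.43 without FOXD2 replicate 2, is among the 55. Gained minus lost regions of single genes moved in 26 recomputed values and not in 37. No paired analysis was possible because the results come from no test, and nothing says that the replicate numbers pair the libraries. The lists hold no read counts, so a site absent from a list was not called at that library's depth, which is not the same as closed.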
